A study of Mus musculus with 3 samples.

Results

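The genes described here make and receive prostaglandins: the cyclooxygenases Ptgs1 and Ptgs2, the terminal synthases Hpgds, Ptgds, Ptges, Ptges2 and Ptges3, and the receptors Ptger3, Ptger4 and Ptgdr. The rule that picks them goes by gene name and uses no measured value, and every probe carrying one of these 10 names was read. They account for 10 of the 31069 genes named on the array, for 15 of its 39429 probes and for 24 of its 43020 non-control spots. The RNA came from bone marrow-derived mast cells (BMMCs), which are grown out of bone marrow progenitors, of Pafah2-deficient 12-wk-old male mice on a C57BL/6 background. Pafah2 is a phospholipase that acts on platelet-activating factor and on oxidised phospholipids. The cells were exposed for 12 h to 1 of 3 conditions, with 1 array each. The first was a mixture of the omega-3 epoxides 17,18-EpETE and 19,20-EpDPE, in a ratio of 2 to 3, at 300 nM. The second was GW9662, which blocks PPAR gamma, a nuclear receptor, at 0.5 µM. The third was the vehicle, DMSO. All 3 cultures lacked Pafah2, and no wild-type culture was analysed here. The labels do not give the part of Pafah2 that was deleted or whether the marrow of several animals was pooled.

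Prostaglandin synthesis starts when a phospholipase A2 releases arachidonic acid from membranes. The cyclooxygenases turn it into prostaglandin H2, COX-1 (Ptgs1) as the enzyme present in resting cells and COX-2 (Ptgs2) as the enzyme induced on stimulation. Terminal synthases then make the individual prostanoids, and each of these acts through its own G protein-coupled receptors. Activated mast cells are known for prostaglandin D2, which they make through the haematopoietic synthase Hpgds.

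The probes are 60 bases long, and their positions are those of the files on build mm9. The 3 probes here are shown because the first reads the mast cell prostaglandin D2 synthase, and each of the others is the second probe of a gene whose values are taken from another probe. Each is written in the sense direction, 5′ to 3′. The Hpgds probe lies at chr6:65073550-65073609 on the minus strand, from base 444 of its transcript, the Ptges probe at chr2:30748214-30748273 on the minus strand, from base 364, and the Ptger3 probe at chr3:157268044-157268103 on the plus strand, from base 1069.
Hpgds: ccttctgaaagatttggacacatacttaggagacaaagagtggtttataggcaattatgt
Ptges: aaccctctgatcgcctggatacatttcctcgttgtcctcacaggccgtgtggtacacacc
Ptger3: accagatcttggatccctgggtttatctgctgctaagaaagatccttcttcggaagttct

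No pair of member probes shared a run of more than 11 bases. The hexamer AATAAA, searched on the sense strand, occurred in 3 of the 15 member probes (those of Ptgds and Ptgdr and 1 of Ptges3), a share of 20.0%, and in 12.6% of all 39429 probes. Of the 15 member probes, 14 had a single copy on the array, and the Ptgs2 probe had 10.

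A level is the log2 signal of a probe relative to its array's 75th percentile, and a log2 ratio is the difference between the levels of a probe on a pair of arrays. The ratio of epoxides over vehicle is called the epoxide ratio, that of GW9662 over vehicle the GW9662 ratio, and that of epoxides over GW9662 the between-treatment ratio. Between 52.3% and 54.6% of non-control spots passed the background test on each array, and no spot was saturated. No test could be made with 1 array per group. The only error available is the spread among copies of a probe on 1 array, with a median SD of 0.0558 for the epoxide array, 0.0553 for the GW9662 array and 0.0602 for the vehicle array. It gives a 95% technical interval of 0.161 on either side of an epoxide ratio, 0.160 for a GW9662 ratio and 0.154 for a between-treatment ratio. These intervals hold spot error only, and none of the spread between cultures, labellings or hybridisations. The epoxide and GW9662 ratios share 1 vehicle array. Copies of a probe differed most in a band of 220 of the 532 rows of the array, ending at row 400, which is called the noisy band here.

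The treated arrays could not be assigned to their treatments with certainty. The scanner file attached to the epoxide sample matched the value table column of the GW9662 sample on 100% of its values, within 0.01 on the log2 scale, and the GW9662 scanner file matched the epoxide column. The vehicle file matched its own column. Values below follow the scanner files, so that "the epoxide array" and "the GW9662 array" mean the arrays labelled so. If the value table is right, the 2 names change places throughout: the epoxide and GW9662 ratios are exchanged, and every between-treatment ratio has the other sign.

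The label of the cells was set against markers. All 10 mast cell markers (Kit, Fcer1a, Ms4a2, Cpa3, Tpsb2, Cma1, Mcpt4, Hdc, Gata2 and Mitf) were well above background on all 3 arrays. Their summed linear signal, in units of the 75th percentile, was 445 on the epoxide array, 508 on the GW9662 array and 573 on the vehicle array. The sum is mostly carried by its brightest markers: the epoxide ratio was -0.68 for Cpa3, -0.39 for Cma1 and -0.34 for Fcer1a. It was -0.047 for Kit, and Ms4a2 (0.094), Hdc (0.099) and Mitf (0.12) had positive epoxide ratios. Hdc passed the background test with a dim signal, at -4.19, -4.51 and -4.29 on the epoxide, GW9662 and vehicle arrays, and was read in the noisy band. The part of that order in the ratios of the prostaglandin genes was not tested. Of the other cell types, 3 of 3 basophil, 4 of 5 macrophage, 2 of 2 megakaryocyte, 2 of 5 neutrophil, 1 of 2 T cell, 0 of 2 B cell and 0 of 2 fibroblast markers were above background on all arrays. The B cell marker Cd79a was above it on the GW9662 array alone (-1.77). The neutrophil marker Mpo was above it on the GW9662 (-2.42) and epoxide (-5.42) arrays. Both were read in the noisy band. The T cell marker counted, Cd3e, had an epoxide ratio of -1.09. In RNA of a whole culture, fewer cells of a type and less RNA per cell cannot be told apart. Nor can it be told whether mast cells or other cells gave the signal of a marker.

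Among the 10 prostaglandin genes, 7 were well above background on all 3 arrays and 3, Ptgs2, Ptgds and Ptgdr, on none. No measured member differed by 2-fold in any comparison, and none by 1.5-fold. Over all genes measured on both arrays, 2.28% had an epoxide ratio of at least 2-fold in either direction, 0.823% such a GW9662 ratio and 1.16% such a between-treatment ratio. At 1.5-fold the shares were 10.2%, 1.84% and 5.73%. With 7 genes, a count of 0 is near these background shares and says nothing particular about the members.

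**Figure D1:**
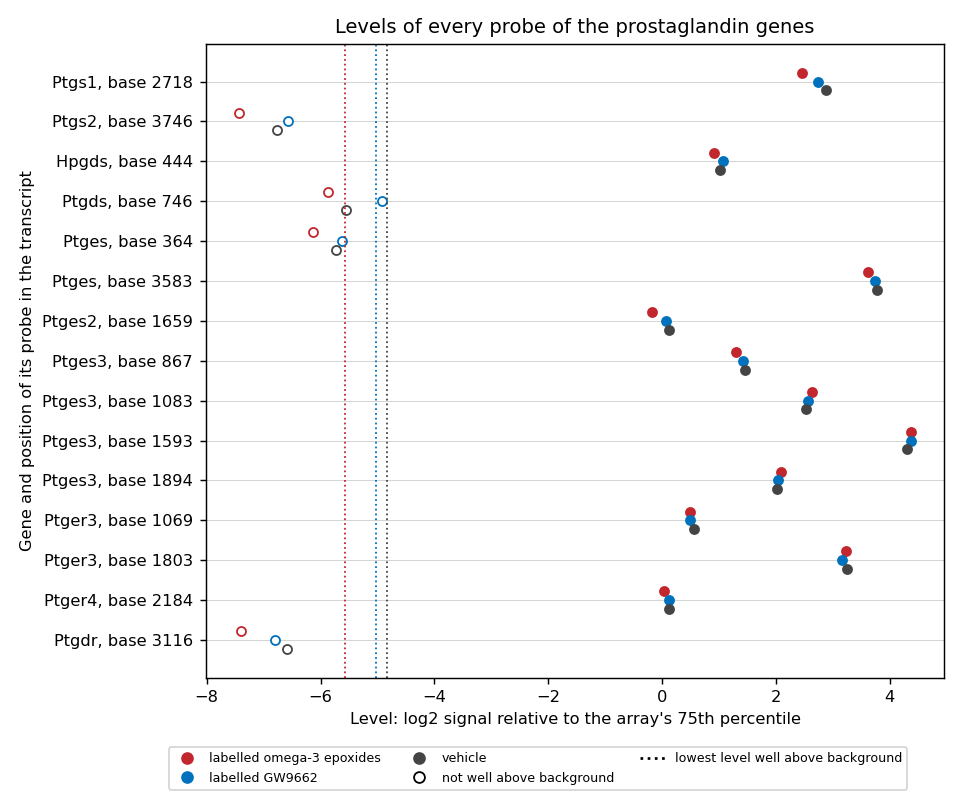
Level of every member probe (log2 signal relative to its array's 75th percentile) on the epoxide, GW9662 and vehicle arrays, with open symbols where the spot was not well above background. The probes of Ptgs2, Ptgds and Ptgdr and 1 of the Ptges probes lie near the floor of all 3 arrays. Among the other probes, the levels on the 3 arrays lie farthest apart for Ptgs1, from 2.45 to 2.88.

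Ptgs1, which encodes COX-1, had a level of 2.45 on the epoxide array, 2.74 on the GW9662 array and 2.88 on the vehicle array. It was lowest with epoxides and highest with vehicle. The epoxide ratio was -0.43 (1.34-fold lower), the GW9662 ratio -0.14 and the between-treatment ratio -0.29. Its epoxide ratio was the ratio to vehicle farthest from 0 among the measured members, and 14.1% of all measured genes had a lower epoxide ratio. Measured genes were also split by signal into 20 bins. The 790 genes in the bin of Ptgs1 had a median epoxide ratio of -0.011, with quartiles of -0.144 and 0.097. Ptgs1 lay below the lower quartile of that bin. Its single probe, at chr2:36107644-36107703 on the plus strand from base 2718, lies in row 323, within the noisy band. There, copies of probes detected on all arrays had an SD of 0.104 in the epoxide ratio (n = 892 spots), against 0.0745 in the other rows (n = 1234), and 11 of the 892 were as far from the median of their probe as the Ptgs1 ratio was from 0. Correcting each array for probe GC content and signal brought the Ptgs1 epoxide ratio to -0.31. The ratio was negative in all 10 settings that gave one. Settings on dim probes, the probe rule and outliers could not change it, as Ptgs1 has 1 bright spot, not marked as an outlier. The ratio was -0.14 in the authors' value table, where the treated arrays are exchanged. Ptgs1 has no value without the noisy band.

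Ptgs2, the inducible COX-2, was at background. Its probe lies at chr1:151954744-151954803 on the plus strand (base 3746). Its 10 copies gave levels from -7.74 to -7.18 on the epoxide array (median -7.41, 9 copies used), from -7.26 to -4.81 on the GW9662 array (median -7.00, 10 copies) and from -7.06 to -5.79 on the vehicle array (median -6.91, 9 copies). Before scaling, the signals of the copies used on the epoxide and vehicle arrays overlapped, with a highest value of 15.99 on the epoxide array and a lowest of 14.35 on the vehicle array. Of the 10 copies, 1 on the epoxide array, 5 on the GW9662 array and 7 on the vehicle array were flagged as surrogate values. Well above background were 1 copy on the epoxide array (at -3.59, marked as an outlier and left out), 1 on the GW9662 array (at -4.81) and 0 on the vehicle array. Both of those copies lay in the noisy band. The 3 copies outside it ran from -7.50 to -7.18 on the epoxide array, from -7.14 to -7.00 on the GW9662 array and from -6.93 to -6.79 on the vehicle array. All of these are lower than the dimmest signal that passed the background test, which stood at -5.57 on the epoxide array, -5.03 on the GW9662 array and -4.84 on the vehicle array, so no ratio is given. Over all genes, with dim ones included, the median epoxide ratio was -0.32.

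**Figure D2:**
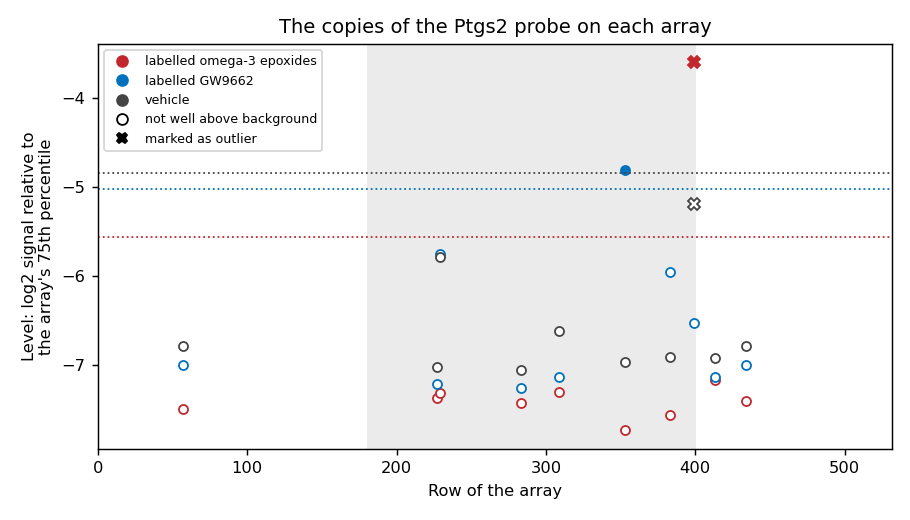
Level of each of the 10 copies of the Ptgs2 probe by row of the array, for the epoxide, GW9662 and vehicle arrays. The shaded rows are the noisy band and the dotted lines the lowest level well above background on each array; crosses are copies marked as outliers. The 3 copies outside the band lie between -7.50 and -6.79 on all arrays, and the 2 copies well above background lie within it.

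Hpgds, which makes prostaglandin D2 in mast cells and other blood cells, had a level of 0.91 on the epoxide array, 1.06 on the GW9662 array and 1.01 on the vehicle array. The values were close on all 3 arrays, with the lowest on the epoxide array. The epoxide ratio of -0.11 and the GW9662 ratio of 0.049 lay within the technical interval, and the between-treatment ratio of -0.16 lay just past it. Its probe, the first of those printed, is in row 350, within the noisy band, where 95% of copies deviated by -0.191 to 0.142 in the between-treatment ratio, a range that holds the Hpgds value. The ratio was also inside the technical interval with normexp (-0.150), with scaling on detected probes (-0.134), after quantile normalization (-0.153) and after cyclic loess (-0.144). Corrected for probe GC content and signal, the between-treatment ratio was -0.24, past both that interval and the range of copies in the noisy band. The epoxide ratio was then -0.22, past its technical interval too.

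Ptgds, the lipocalin-type prostaglandin D2 synthase best known from brain, was not well above background on any array. Its level was -5.88 on the epoxide array, -4.92 on the GW9662 array and -5.56 on the vehicle array. The GW9662 value was the highest, from 1 spot in row 299 of the noisy band that did not pass the background test. Of these 2 prostaglandin D2 synthases, Hpgds alone was measured.

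Ptges, the inducible microsomal prostaglandin E synthase, was read by a probe at base 3583 (chr2:30744995-30745054, minus strand, row 432), with a level of 3.61 on the epoxide array, 3.73 on the GW9662 array and 3.78 on the vehicle array. The epoxide array was the lowest. The epoxide ratio was -0.17, just past the technical interval, the GW9662 ratio -0.043 and the between-treatment ratio -0.12. The epoxide ratio was inside the technical interval with normexp (-0.112), with scaling on detected probes (-0.141) and after quantile normalization (-0.105). It was inside too after cyclic loess (-0.080) and in the authors' value table (-0.043). It was farther past it after the correction for probe GC content and signal (-0.229) and with the noisy band left out as well (-0.234). The second probe of Ptges, at base 364, was not well above background on any array, with levels of -6.13, -5.61 and -5.74 on the epoxide, GW9662 and vehicle arrays. The probes of Ptges thus disagree on whether the gene is above background.

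Ptges2, a microsomal prostaglandin E synthase with wide expression, had a level of -0.17 on the epoxide array, 0.06 on the GW9662 array and 0.13 on the vehicle array. It was lowest on the epoxide array. The epoxide ratio was -0.30, the GW9662 ratio -0.066 and the between-treatment ratio -0.23. The probe, at chr2:32257968-32258027 on the plus strand (base 1659), has a GC content of 55% and lies outside the noisy band. Corrected for probe GC content and signal, its epoxide ratio was 0.003.

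Ptges3, the cytosolic prostaglandin E synthase that is also the HSP90 co-chaperone p23, was read by 4 probes. The probe at base 1593 (chr10:127513950-127514009, plus strand), from which its ratios are taken, had a level of 4.36 on the epoxide array, 4.37 on the GW9662 array and 4.31 on the vehicle array. The probe at base 1083 gave 2.63, 2.56 and 2.53, and the probe at base 1894 gave 2.08, 2.04 and 2.01, in the order epoxide, GW9662 and vehicle. On all 3 of these chromosome 10 probes the vehicle array was the lowest, with epoxide ratios of 0.10 (base 1083), 0.054 (base 1593) and 0.064 (base 1894), all within the technical interval. The fourth probe, which the files place on chromosome 4 (chr4:25468797-25468856, minus strand, row 373 in the noisy band), went the other way, with 1.29 on the epoxide array, 1.41 on the GW9662 array and 1.45 on the vehicle array. Its epoxide ratio was -0.15, also within the technical interval.

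Ptger3, the receptor EP3 for prostaglandin E2, was read by a probe at base 1803 (chr3:157307508-157307567, plus strand, row 239 in the noisy band), with a level of 3.23 on the epoxide array, 3.15 on the GW9662 array and 3.24 on the vehicle array. The epoxide and vehicle values were nearly equal and the GW9662 value was the lowest. The epoxide ratio was -0.009, the GW9662 ratio -0.088 and the between-treatment ratio 0.079, all within the technical interval. The printed probe, at base 1069, had levels of 0.49, 0.50 and 0.56 on the epoxide, GW9662 and vehicle arrays. Its ratios were within the technical interval too.

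Ptger4, the receptor EP4 for prostaglandin E2, had a level of 0.035 on the epoxide array, 0.11 on the GW9662 array and 0.11 on the vehicle array. The treated and vehicle values were close, and none of its ratios left the technical interval. The epoxide ratio was -0.076, the GW9662 ratio 0.003 and the between-treatment ratio -0.079. Its probe lies at chr15:5184419-5184478 on the minus strand (base 2184). Ptgdr, the receptor DP1 for prostaglandin D2, was not well above background on any array. Its level was -7.40 on the epoxide array, -6.80 on the GW9662 array and -6.59 on the vehicle array.

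**Figure D3:**
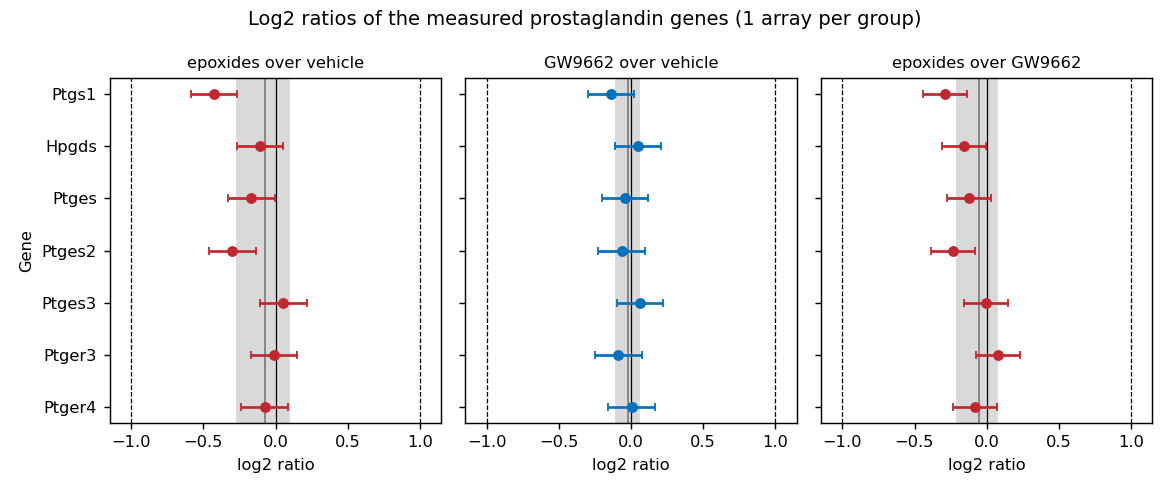
Epoxide, GW9662 and between-treatment log2 ratios of the 7 measured members, with bars for the 95% technical interval, a grey band for the middle 50% of all measured genes and dashed lines at 2-fold. Ptgs1 has the lowest epoxide ratio of them, at -0.43, and no member reaches 2-fold.

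Over the 7 measured members, 6 epoxide ratios were negative, with a median of -0.11, against -0.073 over all measured genes. Of the GW9662 ratios 4 were negative, with a median of -0.043, against -0.022 over all genes. Of the between-treatment ratios 6 were negative, with a median of -0.12, against -0.056. Past the technical interval were the epoxide ratios of 3 members, all lower (Ptgs1, Ptges and Ptges2), where 37.2% of all genes were lower and 16.4% higher by as much. Of these, Ptges and Ptges2 were not past it under some of the other settings, as given for each. Ptgs1 was not past it in the authors' value table (-0.14), where the treated arrays are exchanged. No GW9662 ratio of a member was past it, where 15.1% of all genes were lower and 7.21% higher. The between-treatment ratios of 3 members were past it, all lower (Ptgs1, Hpgds and Ptges2), where 32.4% of all genes were lower and 13.4% higher. Of these, Hpgds and Ptges2 were not past it under some of the other settings. The members' shares are near these backgrounds. Over all genes, 9.42% of the 2-fold epoxide calls were higher, against 31.0% after quantile normalization, 23.0% after cyclic loess, 34.7% after the correction for probe GC content and signal, 43.1% in the authors' value table, 10.4% without the noisy band and 52.3% with band and correction changed together. Of the 2-fold between-treatment calls 17.7% were higher, against 39.2%, 33.6% and 39.3% under the first 3 of these changes, 82.3% in the authors' value table, 40.7% without the noisy band and 77.3% with both changed. The direction of the calls over all genes therefore depends on the processing and on the assignment of the treated arrays.

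**Figure D4:**
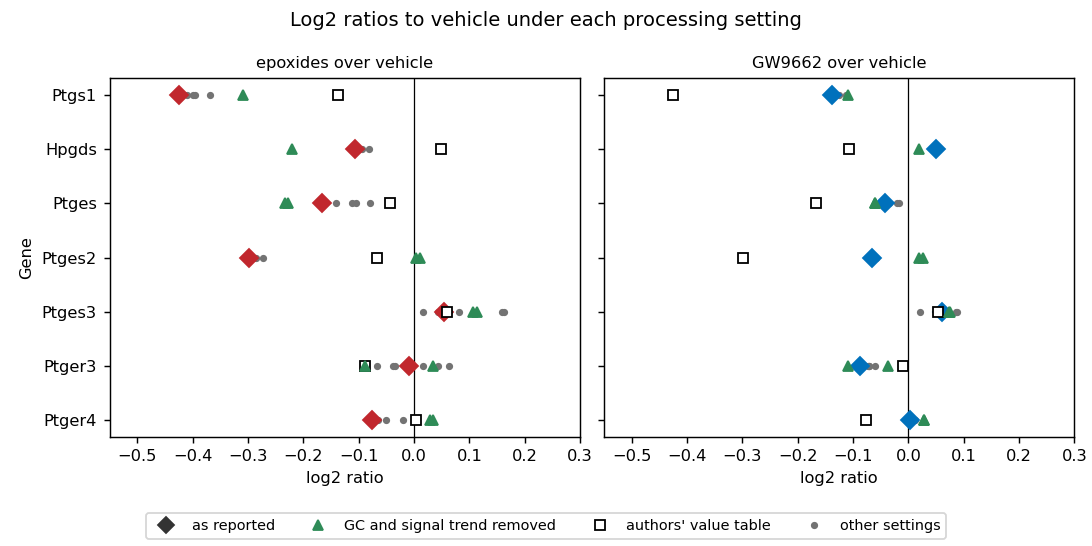
Epoxide and GW9662 log2 ratios of the 7 measured members under each processing setting that gave a value, with diamonds for the value as reported, triangles for the GC content and signal correction and squares for the authors' value table. Ptgs1 is negative in each of its settings, and the epoxide ratio of Ptges2 is 0.003 after the correction.

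The 3 genes with ratios to vehicle nearest to those of Ptgs1, by Euclidean distance over the 2 ratios, were Myo3b, H3c13 and Hrc, at distances of 0.0016, 0.0016 and 0.0023. In all, 824 of 15697 measured genes lay within 0.1 of it. No such count was made for other pairs of ratios, and 3 arrays give a description only.

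The rest of the pathway was read from a list of 36 further genes of prostanoid metabolism, all present on the array. Of these, 16 were above background on all arrays, 15 on none and 5 on some. None of the genes measured on both arrays differed by 2-fold in any comparison. Past the technical interval were the epoxide ratios of 4 higher and 3 lower genes of 16, the GW9662 ratios of 2 higher and 1 lower of 17, and the between-treatment ratios of 2 higher and 3 lower of 17. These shares stand beside the same background as the members'. Above background on all arrays were 5 of 12 genes that release arachidonic acid, 6 of 11 other synthases and reductases, and 4 of 6 genes of transport and breakdown. So was 1 of 7 genes grouped as other receptors, a group that includes Ptgfrn, a regulator of a prostaglandin receptor and not itself one.

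Pla2g4b, a cytosolic phospholipase A2, had a level of 1.49 on the epoxide array, 1.75 on the GW9662 array and 2.01 on the vehicle array, lowest with epoxides (epoxide ratio -0.52). Its probe lies in row 327, within the noisy band. Plaa, a phospholipase A2-activating protein, went the other way, with 1.60 on the epoxide array, 1.32 on the GW9662 array and 1.18 on the vehicle array (epoxide ratio 0.42). Its other probe was not above background on any array.

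Cbr1, a carbonyl reductase acting on prostaglandins, had 0.88 on the epoxide array, 1.07 on the GW9662 array and 1.21 on the vehicle array (epoxide ratio -0.33). Slco3a1, a prostaglandin transporter, had -3.63, -3.42 and -3.31 on the epoxide, GW9662 and vehicle arrays (epoxide ratio -0.32). Its other probe was above background on the epoxide array alone, so it gives no ratio. The 790 genes in the signal bin of Slco3a1 had a median epoxide ratio of -0.178, with quartiles of -0.570 and 0.104, a range that holds its value. Ptgir, the prostacyclin receptor, was the only other receptor above background on all arrays, with -3.36 on the epoxide array, -3.34 on the GW9662 array and -3.70 on the vehicle array. It was lowest with vehicle, with an epoxide ratio of 0.34 and a GW9662 ratio of 0.36.

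The 5 genes above background on only some arrays were Pla2g2d, Mgll, Cbr2, Prxl2b and Tbxa2r, all read by a probe in the noisy band. Pla2g2d passed on the epoxide array alone, with -4.96 there, -5.13 with GW9662 and -7.06 with vehicle. Prxl2b also passed there alone, at -5.27, and failed at -5.39 with GW9662 and at -4.88 with vehicle. Mgll passed with epoxides (-4.88) and GW9662 (-4.81) and failed with vehicle (-4.82). Bounds of the kind given next for Tbxa2r were at most 1.05-fold for Pla2g2d, Prxl2b and Mgll. Tbxa2r, the thromboxane receptor, had levels of -7.12 on the epoxide array, -5.20 on the GW9662 array and -4.08 on the vehicle array, and was above background on the vehicle array alone. Set against the lowest level that passed the background test on the dim array, it was at least 2.81-fold lower with epoxides and at least 1.93-fold lower with GW9662. Cbr2, another carbonyl reductase, had -6.89 on the epoxide array, where it was not above background, -4.15 on the GW9662 array and -4.70 on the vehicle array, and was at least 1.83-fold lower on the epoxide array than on the vehicle array and at least 2.68-fold lower than on the GW9662 array. That level is not a strict limit, since some spots above it failed the test: the Col1a2 spot failed at -5.37 on the epoxide array and at -4.69 on the GW9662 array. Each of these rests on 1 spot per array, and the part of the noisy band in them was not tested.

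**Figure D5:**
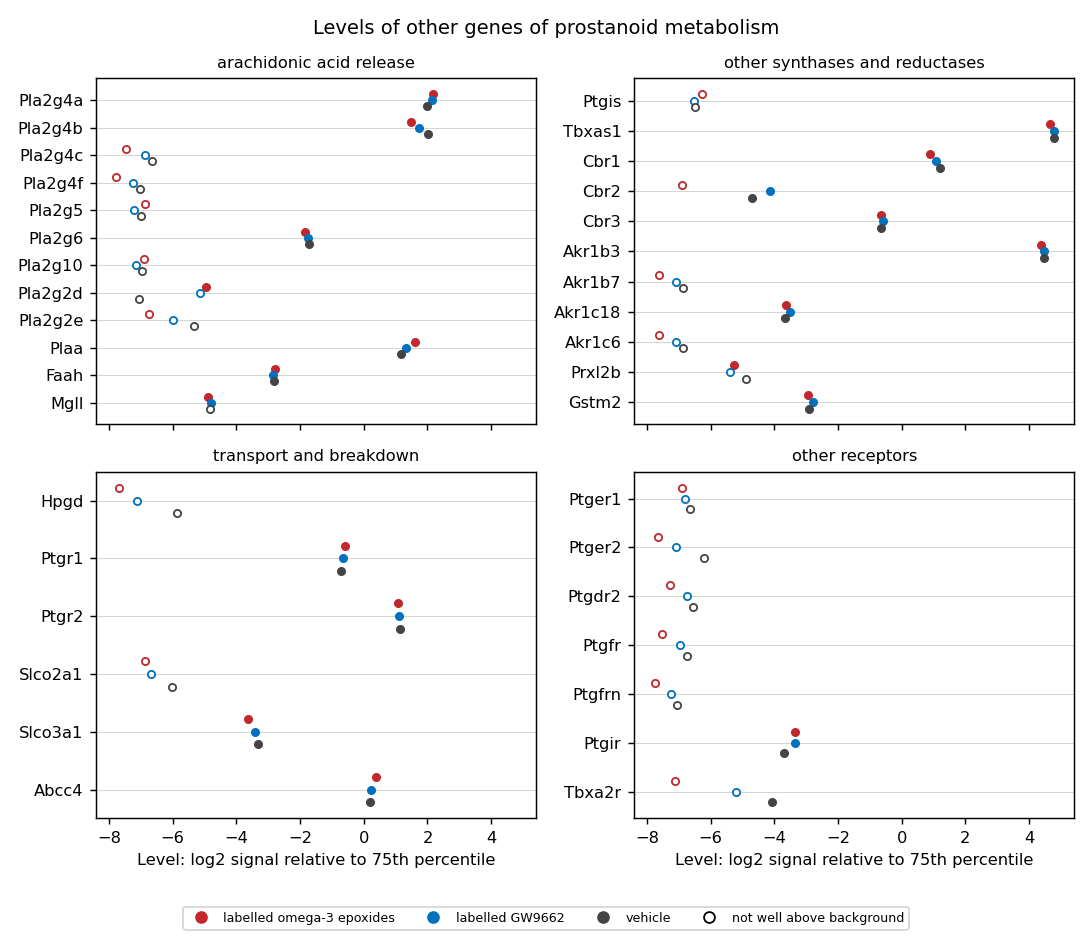
Levels of the 36 further genes of prostanoid metabolism (log2 signal relative to its array's 75th percentile) on the epoxide, GW9662 and vehicle arrays, with open symbols where the spot was not well above background. Most receptors lie at the floor of all 3 arrays, and Tbxa2r is filled on the vehicle array alone.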

How the data were processed

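RNA of BMMCs was labelled with Cy3 and read on 3 one-colour arrays. Per the file headers and the submitters' processing notes, the authors used Agilent Feature Extraction 11.5.1.1, and the deposited gProcessedSignal is a linear intensity with background subtracted and trends across the array removed, before any scaling between arrays. The deposited value table holds a ratio of that intensity to each array's 75th percentile. Its epoxide column matches the GW9662 scanner file, and its GW9662 column the epoxide one. Which of the 2 assignments is right is not known, so the scanner files were used as labelled and the table as an alternative. Per the file headers, the other deposited columns used are flags for background, outlier and surrogate.

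Log2 gProcessedSignal minus the log2 of each array's 75th percentile gave levels. Outlier spots were left out, copies averaged, and each gene took the values of the probe whose mean level over the 3 arrays was highest. A gene was measured in a comparison if most copies of that probe passed the background test on the pair of arrays, and was called at 2-fold. Symbols came from RefSeq for 28324 of 39429 probes. With 1 array per group no test was made. Python 3.11.15, R 4.3.3 and limma 3.58.1 were used, and the ratio code was tested on simulated data. Alternatives were normexp (offset 50), other scalings, quantile, cyclic loess, the value table, the dim-probe filter, the probe rule, outliers kept, the noisy band of 220 of 532 rows left out, a quadratic correction for probe GC content and signal, both of these together, and 1.5-fold calls.

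The members, the pathway list, the markers and the noisy band were chosen with earlier results of these data known. Named genes of the pathway list are those measured on all arrays with a log2 ratio of at least 0.3 in any comparison, and those above background on only some arrays. For likeness, the 3 genes nearest to the member farthest from vehicle were named.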

Additional observations from a re-analysis of the deposited data

How the results depend on the processing

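No member reached 2-fold in any of the 13 settings. The median log2 ratio of the measured members between treatments (-0.12 as reported) was 0.12 in the authors' value table, -0.016 corrected for probe GC content and signal, and 0.0020 with the noisy band left out as well. The median epoxide ratio (-0.11 as reported) was -0.23 with no filter on dim probes and 0.029 with both changes. The count of 0 pathway genes at 2-fold became 6 (epoxide ratio), 3 (GW9662 ratio) and 2 (between treatments) with no filter, where probes at background enter. Of 234 values of single members, 201 moved by no more than 1 technical SD, 33 moved by more, and 18 of those changed sign. These counts include the authors' value table, where the treated arrays are exchanged. They also include settings that could not move a value, such as outliers kept, as no measured member had a spot so marked. Ptgs1 and Hpgds have no value without the noisy band. The cause of the moves outside the authors' value table was not tested. No paired analysis was possible because each group has 1 array, which also leaves no replicate to leave out. Dim probes are limited by signal over background, and the precision of every value by the number of arrays.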
